A study of Mus musculus with 143 samples.

Results

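The nuclear genes of oxidative phosphorylation were examined in single microglia of the neonatal mouse cerebellum. The gene rows taken were all those whose symbol begins with Nduf followed by a, b, c, s or v, with Uqcr, with Cox4 to Cox8 or with Atp5, and those named Sdha, Sdhb, Sdhc or Sdhd, which gave 90 of 23337 gene rows. Of these, 74 encode subunits of the 5 respiratory complexes found in most tissues, 36 of complex I, 4 of complex II, 8 of complex III, 11 of complex IV and 15 of complex V. A further 8 are isoforms restricted to particular tissues and were kept apart. The other 8 are the complex I assembly factors Ndufaf1, Ndufaf2, Ndufaf3, Ndufaf4 and Atp5sl, the supercomplex factor Cox7a2l, the coupling factor Atp5s, and Cox4nb, a gene of the endoplasmic reticulum membrane protein complex that shares only the prefix of its name. Ndufa4 was counted in complex IV, to which its protein belongs, despite its name. Symbols are printed as deposited, and several are older ones.

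Oxidative phosphorylation takes place in the inner mitochondrial membrane. Complexes I and II pass electrons from NADH and succinate to ubiquinone, complex III passes them on to cytochrome c, and complex IV hands them to oxygen. Complexes I, III and IV pump protons as they do so, and complex V, the ATP synthase, makes ATP as the protons flow back. Complex II is encoded wholly in the nucleus, while the other complexes combine nuclear subunits with a few encoded by mitochondrial DNA, for which the table has 0 rows, so only the nuclear side could be read. Microglia, the resident macrophages of the brain, use both glycolysis and respiration.

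The cells were 143 microglia of wild type male C57BL/6N mice at postnatal day 7, sorted from pooled cerebella as live cells low for CD45 and positive for CD11b, Gpnmb and Clec7a, a gate that enriches the proliferative-region-associated microglia of developing tissue. All carry the same labels and no cell is tied to a particular animal, which makes the series 1 sample without replicates, and so no test was made. The libraries were made with Smart-seq2, which reads full-length transcripts without molecular identifiers, on a plate with 95 cells (plate 1) and a plate with 48 (plate 2). The age label gives day 7, whereas the name of the pooled library includes adult.

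Total counts per cell ran between 271190 and 1226521, with a median of 760690, and the number of genes detected between 1552 and 4955, with a median of 3255. Of 9 microglial markers, 8 were read in at least 90% of cells, among them Csf1r and C1qa in every cell, and the gate genes Gpnmb and Clec7a were read in 98.6% and 83.2%. Of the markers of neurons, astrocytes, oligodendrocytes and erythrocytes that had a row, the most widely read was Mbp, in 13.3% of cells. Levels are given as CPM, a gene's share of the gene reads of a cell scaled to 1000000. Shares of cells with a read carry exact Clopper-Pearson 95% intervals, which cover counting error only; copies of 1 molecule are not independent reads, and the spread between animals cannot be seen.

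Most subunit genes were read in most cells. Of the 74 subunits, 38 were detected in 90% of cells or more, against 545 of all 12801 genes with a count (4.26%). At least 50% of cells held a read of 73 subunits. Of the 7616 genes compared between plates below, a set that leaves out genes of low level, 2187 reached 50%. A cell had a read of between 34 and 74 of the 74 subunits, with a median of 67 and quartiles of 62 and 70. The complexes differed: all 11 subunits of complex IV passed 90% of cells, as did 12 of 15 of complex V, 5 of 8 of complex III, 2 of 4 of complex II and 8 of 36 of complex I. The median share of cells over subunits was 97.9% for complex IV, 96.5% for complex V, 95.5% for complex III, 87.1% for complex I and 85.3% for complex II. In every cell there was a read of Cox4i1, Cox7c, Atp5j2 and Atp5l.

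**Figure D1:**
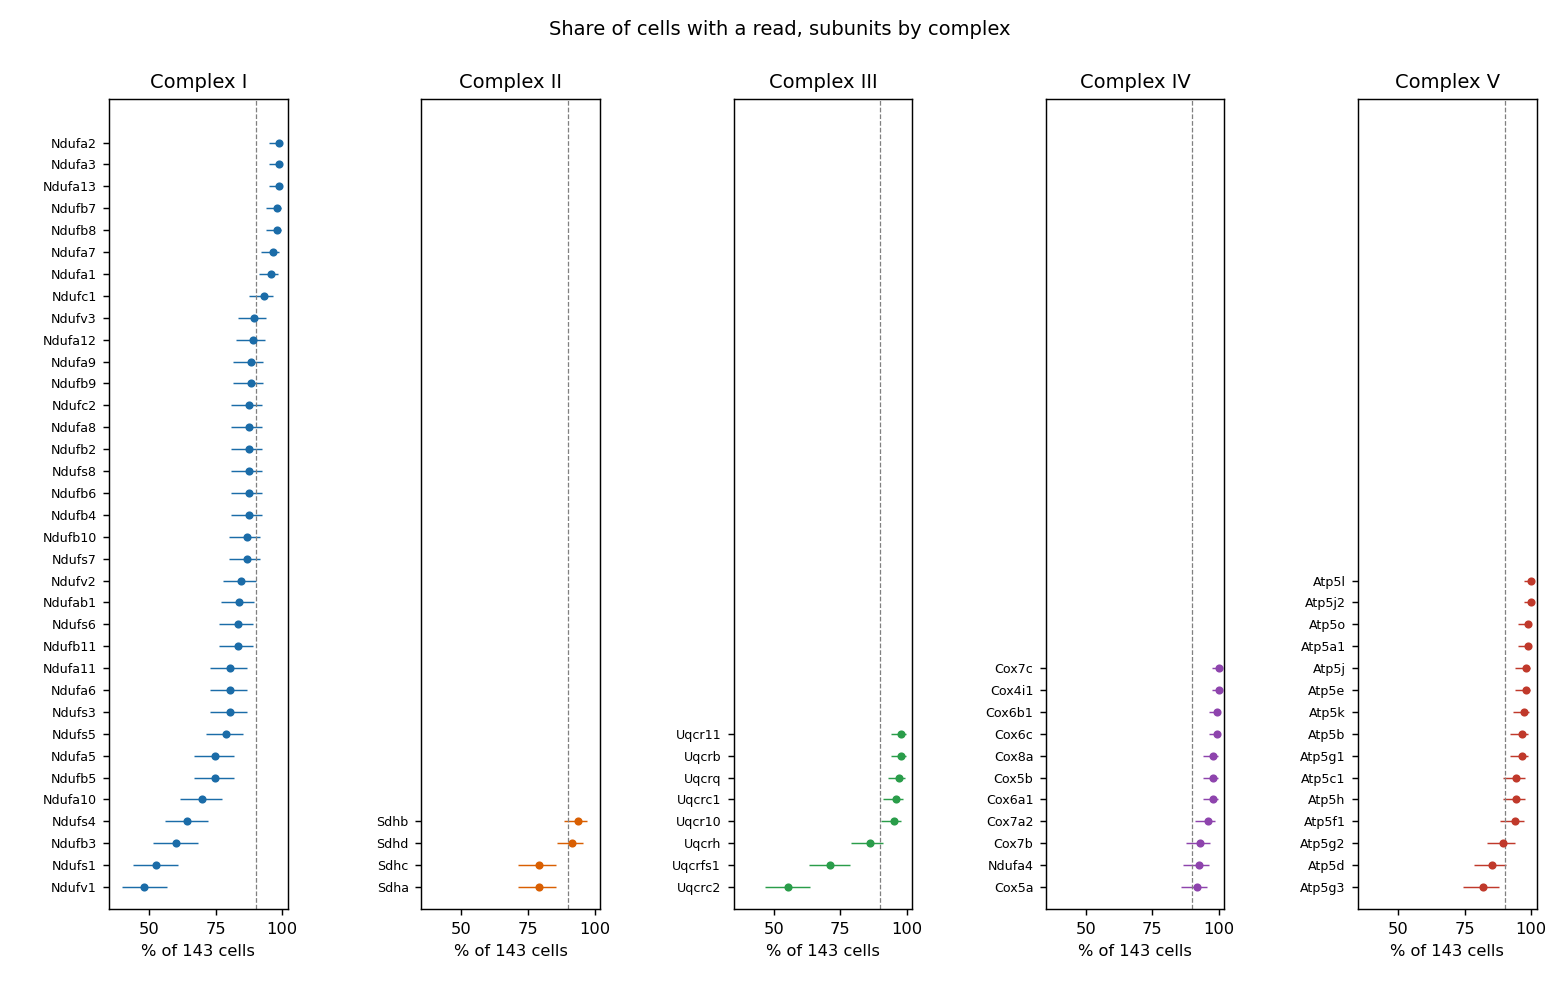
Share of the 143 cells with at least 1 read (horizontal axis, in percent) for 73 of the 74 subunits, 1 panel a complex and 1 row a gene, sorted by share. Points are shares, bars are exact 95% binomial intervals that cover counting error only, and the dashed line stands at 90%; the points of complex IV lie wholly to its right, while complex I reaches down to Ndufv1 at 48.3%.

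Complex I had its lowest detection in the core subunits, which carry the flavin and iron-sulfur clusters and the ubiquinone site. None of the 7 reached 90% of cells, and their median was 80.4%, against 87.4% over the 29 accessory subunits. Ndufv1, which binds flavin and accepts electrons from NADH, had a lowest, median and highest level of 0, 0 and 547 CPM and was read in 48.3% of cells (95% interval 39.8 to 56.8). Ndufs1, the large iron-sulfur subunit, had 0, 11.7 and 842 CPM and was read in 52.4% (43.9 to 60.9). These were the subunits with the lowest detection of all 74, each absent from the reads of about as many cells as held it. Genes of like CPM, by the comparison given below, were read in 53.1% of cells for Ndufv1 and 62.2% for Ndufs1. Genes of like level per length were read in 57.3% and 48.3%. Detection was higher for Ndufs3 (80.4%), Ndufv2 (84.6%), Ndufs7 (86.7%) and Ndufs8 (87.4%), with medians between 85.2 and 252 CPM. Ndufs3 lies in the module that binds ubiquinone, and Ndufv2, Ndufs7 and Ndufs8 hold iron-sulfur clusters.

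Accessory subunits of complex I surround the core and are needed for its assembly or stability. Their shares of cells ran between 60.1% (Ndufb3) and 98.6% (Ndufa2, Ndufa3 and Ndufa13). Per length, as pooled counts divided by summed exon length and scaled to a total of 1000000 over all genes (ppm), the highest levels were 1053 ppm for Ndufa2 and 969.9 for Ndufa1, and the lowest were 23.4 for Ndufb4 and 25.2 for Ndufab1, the mitochondrial acyl carrier protein. In CPM over cells, Ndufa2 had a lowest, median and highest of 0, 181 and 511, and Ndufa1 of 0, 124.7 and 401. Ndufb4 had 0, 12.2 and 54.3 CPM, and Ndufab1 0, 45.7 and 234 CPM. Ndufb4 was thus read at low level in most cells, with a share of 87.4% (80.8 to 92.4). Ndufb8, of the membrane arm, had the most reads of complex I, with 0, 435 and 1346 CPM. Divided by the length of the annotation's principal transcript, a choice made after seeing the data, it was also the highest of the complex at 1415 ppm, with Ndufa2 at 711 and Ndufa1 at 655, so the leading subunit depends on the length used. Ndufa13, also known as GRIM-19, had 0, 187 and 472 CPM. Ndufs4, whose loss gives mice a fatal encephalopathy, had 0, 43.8 and 443 CPM and was read in 64.3% of cells (55.9 to 72.2), the second lowest share among accessory subunits.

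Complex II, succinate dehydrogenase, is also an enzyme of the citric acid cycle. Sdha, its flavoprotein, had a lowest, median and highest of 0, 292 and 1399 CPM and was read in 79% of cells (71.4 to 85.4). Sdhb, the iron-sulfur subunit, had 0, 334 and 1069 CPM and 93.7% of cells (88.4 to 97.1). Of the membrane anchors, Sdhc had 0, 94.4 and 627 CPM and was read in 79%, and Sdhd 0, 267 and 1057 CPM and in 91.6%. The anchors also differed per length. By summed exon length Sdhd led the complex at 709.9 ppm, Sdhb was at 478.9 and Sdhc was lowest at 108.2, whereas by principal transcript Sdhb led at 634, Sdhd was at 479.5 and Sdhc again lowest at 74.9.

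In complex III, cytochrome bc1, 5 of the 8 subunits were read nearly everywhere, while Uqcrh, Uqcrfs1 and Uqcrc2 were read less widely. The small subunits Uqcr11, Uqcrb, Uqcrq and Uqcr10 were read in 97.9%, 97.9%, 97.2% and 95.1% of cells. Uqcr11 had a lowest, median and highest of 0, 251 and 760.2 CPM, Uqcrb of 0, 143 and 402, Uqcrq of 0, 141.8 and 507 and Uqcr10 of 0, 158 and 518. The hinge protein Uqcrh, at 0, 122.6 and 476 CPM, was read in 86%. The core proteins Uqcrc1 and Uqcrc2 face the matrix as a pair and are related to processing peptidases. They stood far apart: Uqcrc1 had 0, 775 and 2371 CPM and was read in 95.8% of cells (91.1 to 98.4), while Uqcrc2 had 0, 76.8 and 849 CPM and was read in 55.2% (46.7 to 63.6). Per length Uqcrc1 was at 597 and Uqcrc2 at 155 ppm. Uqcrfs1, the Rieske iron-sulfur protein that moves electrons to cytochrome c1, had 0, 140.5 and 675 CPM and was read in 71.3% (63.2 to 78.6).

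Complex IV, cytochrome c oxidase, has its catalytic subunits in mitochondrial DNA, and its nuclear subunits regulate and stabilise it. Cox4i1, the regulatory subunit that binds ATP, had a lowest of 119.1, a median of 817 and a highest of 1756 CPM, and no cell was without it. Cox8a, one of the smallest subunits, had 0, 262 and 775 CPM and was read in 97.9%. By summed exon length Cox6c and Cox7c were the lowest of the complex, at 163 and 218 ppm. Cox6c had 0, 187 and 496 CPM and was read in 99.3% of cells, and Cox7c had 3.03, 76.9 and 234 CPM and was read in 100%. By principal transcript Cox6c was far higher, at 782 ppm, and Cox7b was the lowest at 242 ppm, with a share of 93.01% of cells. Cox5a and Cox5b, which face the matrix, had medians of 173.5 and 179.7 CPM and highest cells of 480.03 and 445 CPM, and Cox6b1, on the side of cytochrome c, had a median of 268 CPM and a highest of 672. Cox7b, a small membrane subunit, had 0, 114.3 and 328 CPM. Ndufa4, first named as a complex I protein, was read in 92.3% of cells at 0, 113.6 and 376 CPM.

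Complex V is built of the catalytic F1 head, the stalks that hold it and the membrane part with the rotating ring. In the head, Atp5a1 and Atp5b, the alpha and beta subunits, had 0, 727 and 1693 CPM and 0, 622 and 1805 CPM, and were read in 98.6% and 96.5% of cells. The gamma subunit Atp5c1 had 0, 343 and 928 CPM. The small delta and epsilon subunits, Atp5d and Atp5e, had medians of 174.5 and 124.8 CPM, and of the head subunits Atp5d had the lowest share of cells, 85.3% (78.4 to 90.7). In the stalk, Atp5f1 (subunit b) had 0, 348 and 1127 CPM, Atp5o (the oligomycin sensitivity protein) 0, 306 and 1282, Atp5j (factor 6) 0, 246 and 678 and Atp5h (subunit d) 0, 154.5 and 406. All 4 stalk genes were read in over 90% of cells. The 5 head subunits took 0.214% of gene counts, the 4 stalk subunits 0.114% and the 6 membrane genes 0.0646%. Of the membrane genes, Atp5l (subunit g) had 4.58, 55.4 and 146 CPM and Atp5j2 (subunit f) 36.9, 152 and 449.9 CPM. Both were read in 143 of 143 cells although their levels in CPM were well below those of Atp5a1 and Atp5b.

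Levels of different genes were compared per length, in ppm, with the summed exon length of each gene as its length. The median over subunits was 444 ppm in complex III, 368 in complex II, 350.0 in complex IV, 258 in complex V and 231 in complex I. Cox4i1 led at 1589, rank 60 of the 22878 gene rows with a length, followed by Cox8a at 1335, Uqcr11 at 1228, Cox6b1 at 1149 and Cox6a1 at 1123. By principal transcript Cox4i1 also led, at 2175, with Ndufb8 next at 1415. Summed exons can be much longer than the main transcript, as for Atp5l with 6443 against 544 bases. With the principal transcript as the length the medians were 605 in complex IV, 515 in complex III, 461 in complex V, 363 in complex II and 254 in complex I. Complex I was the lowest by either length, and the order of the others was not kept. Within complexes the subunits spread widely: the lowest and highest by summed exon length were 23.4 and 1053 in complex I, and 163 and 1589 in complex IV.

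**Figure D2:**
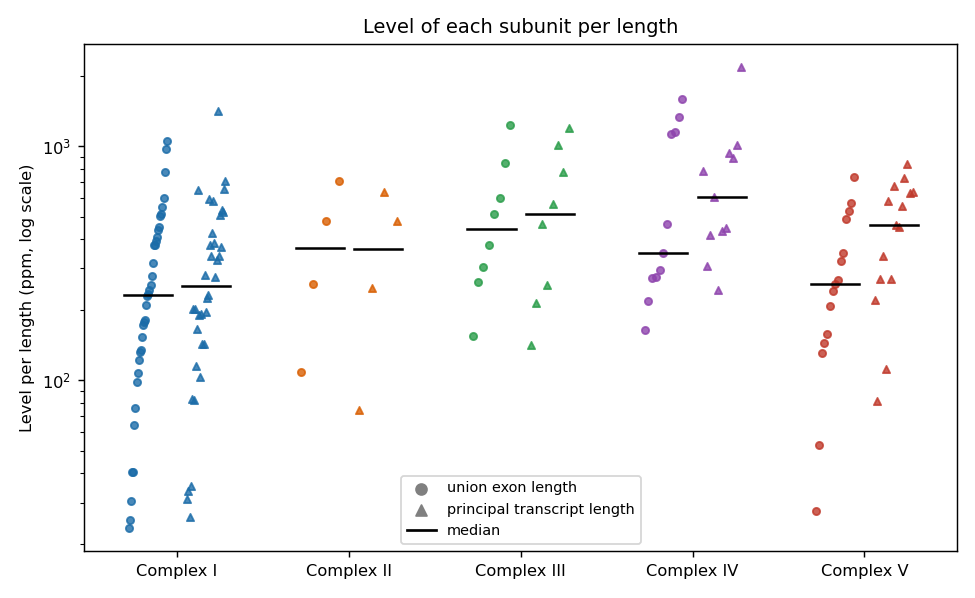
Level of each subunit in ppm, pooled counts per length scaled to a total of 1000000, on a log axis, from counts pooled over 143 cells, divided by summed exon length (circles) or by principal transcript length (triangles), with complexes I to V along the horizontal axis. Black bars are medians over subunits; the median of complex IV is 350.0 by exon length and 605 by principal transcript, while that of complex I, at 231 and 254, is the lowest by both.

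Subunits were read in more cells than genes of like CPM, and in about as many as genes of like level per length. Each subunit was set against the genes closest to it in pooled CPM, and was read in a median of 21.3 percentage points more cells than they were, with 65 of 74 subunits above. Against the genes closest to it in level per principal transcript length, the median difference was 0.699 points, with 38 of 74 above. The subunits' transcripts are short: 45 of 74 are under 1000 bases, with a median of 645 within those 45, whereas the median over all genes with a count is 2840. The part of length in the difference was not tested. For Cox6c, as an example, the share of cells was 99.3%, against a median of 75.5% for genes of like CPM and 98.6% for genes of like level per length.

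**Figure D3:**
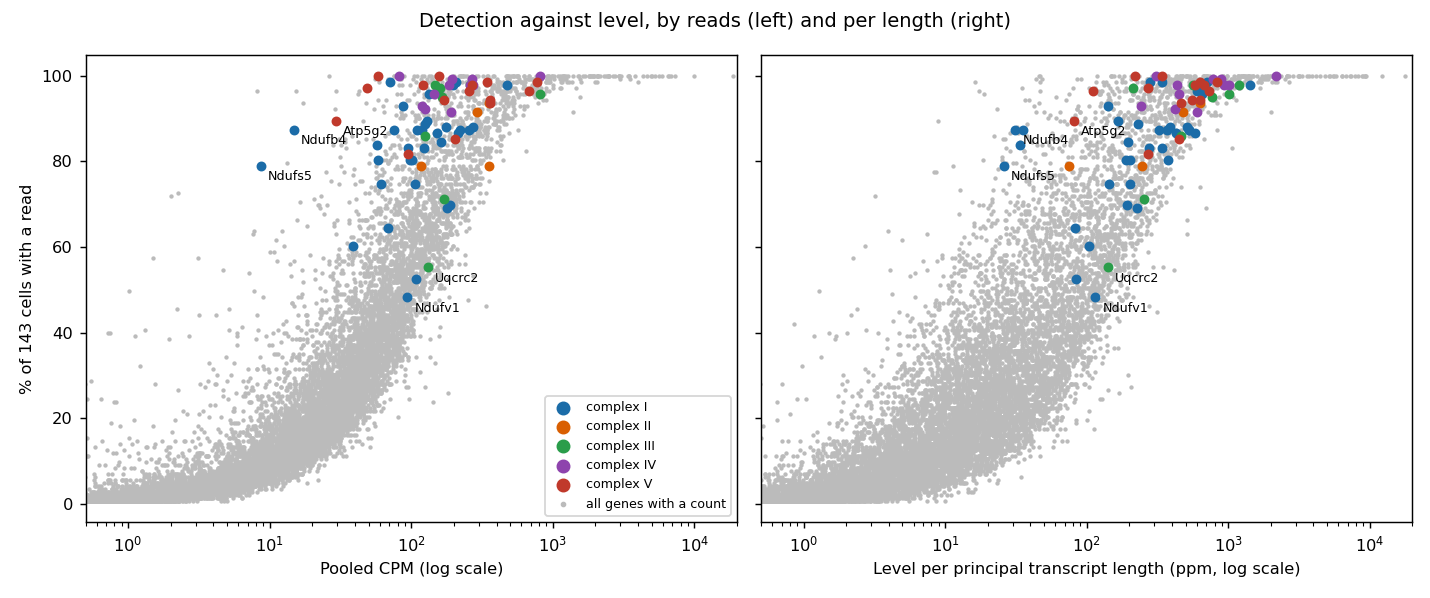
Share of 143 cells with a read (vertical axis, in percent) against pooled CPM (left) and against level per principal transcript length (right), both on log axes, for subunits coloured by complex and for all genes with a count in grey. On the left 65 of 74 subunits lie above genes of like CPM, by a median over all 74 of 21.3 percentage points, while others such as Ndufv1 and Uqcrc2 lie below. On the right the subunits lie within the grey cloud, at a median of 0.699 points.

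On both scales together, 35 of 74 subunits were read in more cells than their neighbours. Above genes of like level per length by 20 percentage points or more were 11 subunits, Ndufb2, Ndufb4, Ndufab1, Ndufs5, Atp5g2, Atp5g1, Sdhc, Ndufc1, Atp5l, Ndufv3 and Uqcrq. How many of all genes pass the same limits was not counted, so the 35 and the 11 only describe the subunits. Ndufb2 had the widest gap, with 87.4% of cells, against 46.2% for genes of like CPM and 30.1% for genes of like level. Ndufb4 was read in 87.4% of cells, against 13.99% and 30.8%, with a median of 11 counts in the cells that read it. Ndufs5 was read in 79%, against 9.09% and 26.6%, with a median of 7 counts. Atp5g2 was read in 89.5%, against 24.5% and 47.6%, with 21 counts. Of the 11, 4 share 20% or more of their sequence with other annotated genes, Ndufb4, Ndufs5, Atp5g2 and Atp5l. Sdhc (79%, against 62.2% and 46.9%), Ndufv3 (89.5%, against 63.6% and 67.1%), Uqcrq (97.2%, against 69.2% and 74.8%) and Ndufb2 share 0.1% or less. Of the windows of 50 bases along the principal transcript, 37.0% for Ndufb4, 31.1% for Ndufs5 and 87.4% for Atp5g2 also occur in the transcripts of annotated pseudogenes, 3 for Ndufb4, 1 for Ndufs5 and 2 for Atp5g2. Reads there could be lost or split in counting, so these levels are uncertain. The same holds for Atp5l (68.5%), Cox7c (52.95%) and Atp5h (50.5%). Among the 74 subunits, 12 shared 20% or more of their windows and 39 shared none. Pooled CPM had a median of 111.4 in the 12 and 164 in the 39, and the share of cells 94.1% and 88.1%. The part of shared sequence in these values was not tested. The principal transcripts of Ndufab1, Ndufb2 and Atp5g1, at 3479, 4371 and 4715 bases, are long for subunits. Which of their transcripts were read was not tested.

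Spread between cells was measured as the squared coefficient of variation of CPM, divided by the running median of neighbouring genes in mean CPM; the excess is the log2 of this ratio. Of the 90 members, 84 were read in at least 10% of cells, and the 5 without a read and Cox4i2 were left out. Over the 84 the median excess was -1.31, and 77 of 84 lay below 0, where 49.7% of 7789 genes did. By complex the medians were -1.88 for IV, -1.51 for III, -1.42 for I, -1.08 for V and -0.62 for II. When genes were ordered by mean CPM per principal transcript length instead, the members' median was -0.27 and 50 of 84 lay below 0; by summed exon length it was -0.38. The low spread at like CPM was thus mostly not seen at like level per length. Against the curve of 45 spike-in RNAs, the members lay at a median of -0.61 and all genes at 0.75. Genes were scaled to the gene total of a cell and spike-ins to the spike-in total. The curve is thus no matched technical limit, and values below it do not show spread below technical noise.

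At like CPM the subunits with the largest excess included core subunits of complexes II and I, Sdha at 0.52 and Ndufs1 at 0.50. Those with the smallest were Ndufb4 at -4.01, Ndufs5 at -3.79 and Atp5l at -3.61, and each of these shares sequence with other genes, as given above. At like level per principal transcript this order was not kept. Sdha was at -0.01 and Ndufs1 at 0.04, the largest was Ndufs7 at 0.73, and the smallest were Ndufb2 at -2.90, Ndufb4 at -2.84 and Ndufab1 at -2.54. Sdha reached 1399 CPM in its highest cell and was at 0 in its lowest, whereas Atp5l kept between 4.58 and 146 CPM. On plate 1 alone the median excess of the subunits was -1.39 and on plate 2 alone -1.42.

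The tissue-restricted isoforms were sparse or unread. Cox6b2 and Cox8c, isoforms of testis, had 0 reads in 143 cells. So did Cox7b2, Cox8b, an isoform of heart and skeletal muscle, and Ndufa4l2, which responds to low oxygen. For each, 0 reads allow a share of up to 2.098% of cells by the approximate limit of 3 in 143 cells, and 2.55% by the exact interval. Cox4i2, the lung isoform, was read in 3 cells, with 96 counts in all, and Cox4i1 made up 99.8% of the level per length of the pair. Cox6a2, the heart and muscle isoform, had 0, 0 and 129.2 CPM and was read in 20 cells (13.99%, 8.76 to 20.8), at 2.34% of the level per length of Cox6a1 and Cox6a2 together; Cox6a1 had 0, 238 and 797 CPM. Cox7a1, of heart and skeletal muscle and brown fat, had 0, 0 and 65.9 CPM and was read in 37 cells (25.9%, 18.9 to 33.9), which were 20% of the cells of plate 1 and 37.5% of those of plate 2. It made up 5.31% of its set per length, with Cox7a2, the widespread isoform, at 61.7% and Cox7a2l at 33.02%. Of the 37 cells with Cox7a1, 36 also read another member of the set. Cells with Cox6a2 or Cox7a1 numbered 52, of which 5 had both.

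Markers of muscle, mural cells and testis were near 0, and no list for lung or brown fat was read. Of 6 muscle markers 4 were at 0, Myh1, Myh6, Myh7 and Tnnt2, and 2 cells had a read of any, with a summed level between 0 and 79.1 CPM over cells. Of 8 mural cell markers 6 were at 0, among them Pdgfrb and Rgs5, with 4 cells and at most 96.1 CPM. Of 6 testis markers 5 were at 0. Cox7a1 was thus read in more cells than any marker of these lists.

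Upstream sequences of 3 pairs are shown because in each pair the restricted gene was unread or sparse while its widespread partner was read in over 95% of cells. Each is the 100 bases before the RefSeq start of the gene on GRCm38.p6, 5′ to 3′ on the gene's strand, with capitals marking the letters CCAAT or CCGGAAG on either strand.
Cox8b, chr7:140900447-140900546, minus strand: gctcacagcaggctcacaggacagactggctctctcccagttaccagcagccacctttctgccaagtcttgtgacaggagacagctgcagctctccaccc
Cox8a, chr19:7217617-7217716, minus strand: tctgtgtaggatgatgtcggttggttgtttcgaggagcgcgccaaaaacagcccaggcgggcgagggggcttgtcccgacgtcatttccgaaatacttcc
Cox7a1, chr7:30184071-30184170, plus strand: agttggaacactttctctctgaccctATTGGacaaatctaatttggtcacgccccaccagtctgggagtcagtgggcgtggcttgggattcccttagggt
Cox7a2, chr9:79759854-79759953, minus strand: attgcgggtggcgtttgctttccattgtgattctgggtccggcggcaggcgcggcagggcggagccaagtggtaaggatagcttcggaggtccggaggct
Cox6b2, chr7:4753095-4753194, minus strand: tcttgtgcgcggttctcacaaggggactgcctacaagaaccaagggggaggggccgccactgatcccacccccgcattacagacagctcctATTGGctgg
Cox6b1, chr7:30626115-30626214, minus strand: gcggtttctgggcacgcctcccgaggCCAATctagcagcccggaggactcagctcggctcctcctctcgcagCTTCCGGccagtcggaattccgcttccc

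Over the whole RefSeq window of 250 bases before and 50 after the start, Cox8b held 2 CpG dinucleotides, Cox7a1 7 and Cox6b2 10, while Cox8a held 19, Cox7a2 20 and Cox6b1 17. All 4 restricted isoforms with a sequence held between 2 and 10, with a median of 8.5, and the 63 subunits with a sequence had a median of 19, ranging between 5 and 39. The median over 17492 protein-coding genes was 13. The sequences describe the genes and not these cells.

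The c-ring of complex V is encoded by 3 genes, Atp5g1, Atp5g2 and Atp5g3, whose proteins differ in the part that is cut off on import. No cell lacked them all, and 42 cells lacked a read of 1 or 2 of them. Over cells Atp5g1 had 0, 227 and 803 CPM, Atp5g2 0, 26.05 and 100.3 CPM, and Atp5g3 0, 80.95 and 483 CPM. Per summed exon length they made up 46.2%, 15.4% and 38.3% of the set, but per principal transcript 24.01%, 17.6% and 58.4%, so that the order of Atp5g1 and Atp5g3 turned with the length used. In reads, without length, Atp5g1 was highest in 81.1% of cells, Atp5g3 in 16.8% and Atp5g2 in 2.1%. The shared windows of Atp5g2 leave its share of the set uncertain.

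Among subunit promoters, motifs of the nuclear respiratory factors were searched for, since these factors are known to act on many genes of the pathway. In the 300-base windows on either strand, GCGCATGCGC (NRF1) occurred in 5 of 63 subunits (7.94%), against 1.47% of 17492 genes, and CCGGAAG, the core of ETS factors such as GABP (NRF2), in 16 of 63 (25.4%), against 12.9%. CCAAT occurred in 26 (41.3%, against 42.3%) and TATAAA in 5 (7.94%, against 14.8%). The NRF1 and ETS letters contain CpG, and CCAAT and TATAAA do not. As given above, the windows of subunits held a median of 19 CpG and those of all genes 13. The part of CpG content in these shares was not tested. Of the 4 restricted isoforms 0 held the NRF1 or the ETS letters, 3 held CCAAT and 2 TATAAA. None of the 4 motifs holds another, and a match describes letters, not binding. The NRF1 genes were Atp5g2, Atp5k, Cox6a1, Ndufa11 and Uqcrc1. Those with the match in the last 100 bases before the start are shown as examples of it, with the match in capitals.
Atp5g2, chr15:102671048-102671147, minus strand: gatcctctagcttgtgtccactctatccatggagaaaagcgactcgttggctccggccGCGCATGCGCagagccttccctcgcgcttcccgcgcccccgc
Atp5k, chr5:108434400-108434499, minus strand: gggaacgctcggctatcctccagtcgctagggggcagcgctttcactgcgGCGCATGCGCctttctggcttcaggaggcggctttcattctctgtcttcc
Ndufa11, chr17:56717662-56717761, plus strand: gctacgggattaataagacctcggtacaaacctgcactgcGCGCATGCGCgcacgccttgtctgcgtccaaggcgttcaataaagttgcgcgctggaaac

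The detection of these 3 genes lay within the range of the other subunits. Ndufa11, an accessory subunit of complex I, was read in 80.4% of cells, Atp5k, subunit e of complex V, in 97.2% and Atp5g2 in 89.5%. Ndufa11 had a lowest, median and highest of 0, 88.1 and 368 CPM, and Atp5k of 0, 42.8 and 159 CPM.

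Factors that assemble the complexes were read in far fewer cells than the subunits. The 5 complex I assembly factors had shares between 14.7% (Ndufaf4) and 31.5% (Ndufaf2), each with a median of 0 CPM. Their level was also lower, with a median of 19.3 ppm by summed exon length, against 274 over the subunits. Of the 5, 4 were read in more cells than genes of like CPM, and 2 in more than genes of like level per length. Ndufaf2 overlaps other genes over 65.6% of its exon length, so its reads are uncertain if strand was not counted. Of 39 assembly genes outside the name rule, 26 had a row under the symbol searched for. Their median share was 21.0%, against 16.1% over all genes with a count. The rest may stand under older symbols, so these values cover only the genes found. Cox17, the copper chaperone of complex IV, had the highest share of the 26, at 85.3%. Among them 0 reached 90%, where 4.26% of all genes with a count did. Atp5s was read in 20.3% of cells and Cox7a2l, which helps join complexes III and IV, in 79% with 0, 113.3 and 414 CPM. Cox4nb was read in 53.8%.

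Partners of the chain were read widely. Of 8 electron carriers and subunits outside the rule, 4 reached 90% of cells, against 4.26% of all genes with a count. They were led by Atpif1, the inhibitor of reverse ATP synthase action, at 98.6%, and by Usmg5, a small protein of the ATP synthase, at 94.4%. Cyc1, cytochrome c1 of complex III, was read in 76.9% and Cycs, cytochrome c, in 83.9%, while the testis form Cyct had 0 reads. Slc25a5, an ADP/ATP carrier, had 1299 pooled CPM and 98.6% of cells, Ucp2, an uncoupling protein of immune cells among others, 902 CPM and 96.5%, and Slc25a4 363 CPM and 96.5%. Slc25a31, Ucp1 and Ucp3, forms of testis, brown fat and muscle, had 0 reads. Of 12 regulators of mitochondrial genes 0 reached 50% of cells. Their median was 10.8%, against 16.1% over all genes with a count, so low shares were also common among genes at large. The 10.8% includes Ppargc1a, which had 0 reads, whereas the 16.1% leaves out genes without a read. The highest was Pprc1 at 30.8%, Nrf1 was at 23.1% and Gabpa at 28.7%.

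Together the members took 1.49% of gene counts, and the 74 subunits 1.46%. Complex I took 0.494%, complex V 0.392%, complex IV 0.266%, complex III 0.197% and complex II 0.111%. In single cells the subunits' share lay between 0.760% and 2.29%, with a median of 1.49%, so the highest cell had 3.02 times the share of the lowest. The coefficient of variation was 19.1% over all subunits, 20.5% for complex I and 42.0% for complex II, which has only 4 genes. The share was higher on plate 1, with a median of 1.53%, than on plate 2, with 1.36%, and the ranges overlapped in every complex.

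**Figure D4:**
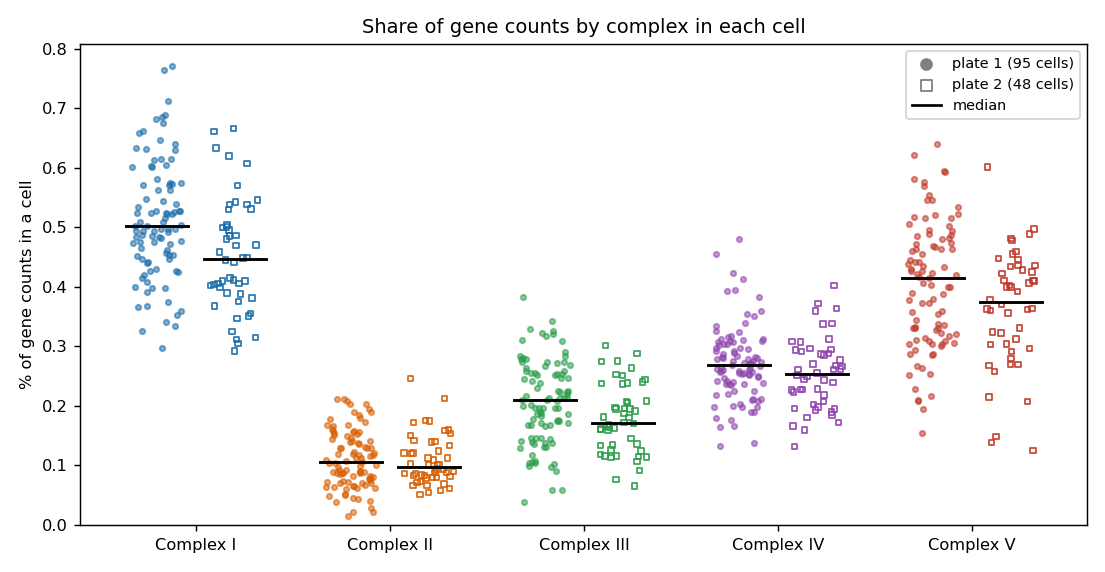
Share of gene counts taken by the subunits of each complex in each cell (vertical axis, in percent), with complexes I to V along the horizontal axis, circles for the 95 cells of plate 1, squares for the 48 of plate 2, and bars for medians. Cells of both plates overlap in each complex, and complexes I and V hold the largest shares.

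Between the plates few members differed. Of the 90 members, 79 had a pooled CPM of 10 or more; the other 11 were Ndufs5, Ndufaf2, Ndufaf4 and the 8 restricted isoforms. On pooled CPM + 1, 4 of the 79 were past 1.5-fold, all higher on plate 1, against a background of 27.8% of 7616 genes past the same fold, 17.5% higher and 10.3% lower. Of the members, 74 were also read in at least 50% of cells, and 3 of these passed, against 6.17% of genes so read. Ndufs7 had 246 pooled CPM on plate 1 and 151 on plate 2 (log2 0.70), Ndufv3 145 and 93.5 (0.62), Ndufb3 44.2 and 26.3 (0.73), and the assembly factor Ndufaf3 29.5 and 14.4 (0.98). Ndufs7 carries an iron-sulfur cluster near the ubiquinone site, and Ndufv3 is an accessory subunit beside Ndufv1. The median log2 ratio was 0.13 over the members and 0.08 over all genes tested.

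A class of cells with cell cycle transcripts was compared with the rest. Cells with a CPM of 10 or more in at least 6 of 24 S genes or 8 of 31 G2/M genes were placed in it, which gave 67 cells, 47 on plate 1 and 20 on plate 2, and left 76 others. It is cut from a range of values and is no cell type, and 20 cells lay within 1 gene of a limit. It differed from the other cells in RNA recovered: the median number of genes detected was 3600 in the class and 2892.5 in the other cells, and the median gene counts per spike-in count were 28.2 and 21.4.

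In CPM, 3 of 79 members were past 1.5-fold, all higher in the cycling class, against a background of 34.4% of genes, 21.7% higher and 12.7% lower. Among the 74 read in at least 50% of cells 1 passed, against 13% of such genes. The coupling factor Atp5s had 19.7 pooled CPM in the class and 7.61 in the other cells (log2 1.26), the assembly factor Ndufaf1 34.2 and 15.1 (1.13), and Ndufab1 69.8 and 46.1 (0.59). Atp5s and Ndufaf1 were read in only 20.3% and 16.1% of cells. Only Ndufaf1 was past 1.5-fold higher on each plate, at 1.18 on plate 1 and 0.93 on plate 2, where 12% of genes were; 0 members were past it lower on each plate, where 5.61% of genes were. The median log2 ratio over the members was 0.09 and over all genes 0.09. Of 42 tested genes in the lists outside the rule, 10 were past 1.5-fold higher and 4 lower. Among the electron carriers and subunits these were 3 of 7 higher, Cycs (0.70), Higd1a (0.66) and Cyc1 (0.62), and 0 lower, and among the assembly genes 6 of 21 higher, led by Cox10 (2.20), and 2 lower, Sdhaf2 (-0.77) and Tmem70 (-0.66). Of 7 regulators 1 was higher, Gabpa (1.11), and 2 lower, Polrmt (-1.04) and Pprc1 (-0.77), and of 7 exchange and uncoupling genes 0 passed. Cox10 and Polrmt were read in only 16.1% and 9.79% of cells.

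By direction alone, 29 of 79 members were higher in the class on both plates, where 35.2% of genes were, and 12 were lower on both, where 24% were. Among the 74 read in at least 50% of cells the counts were 27 and 12, against 36% and 26.7% of such genes. Counts by complex ran both ways, and a difference between complexes was not tested. In complex V 10 of 15 subunits were higher on both plates and 2 lower, and in complex III 5 of 8 and 0. In complex IV the counts were 5 of 11 and 1, in complex II 1 of 4 and 0, and in complex I 6 of 35 and 9. Atp5a1 had a log2 ratio of 0.08 on plate 1 and 0.55 on plate 2, and Atp5g3 of 0.69 and 0.07. In complex I the lower ones included Ndufv3 (-0.51 and -0.44) and Ndufa7 (-0.16 and -0.71). The median share of complex V was 0.426% in the class and 0.349% in the other cells, with 0.436% and 0.341% on plate 1 and 0.405% and 0.359% on plate 2, and the ranges of cells overlapped widely (0.149% to 0.640% and 0.125% to 0.621%). For complex I the medians were 0.491% and 0.482%. Whether the larger number of genes detected in the class bears on these shares was not tested. Scaled to spike-in counts, the median log2 ratio was 0.53 over the members and 0.53 over all genes, and 31 of 79 members were past 1.5-fold, against 50.2% of genes.

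**Figure D5:**
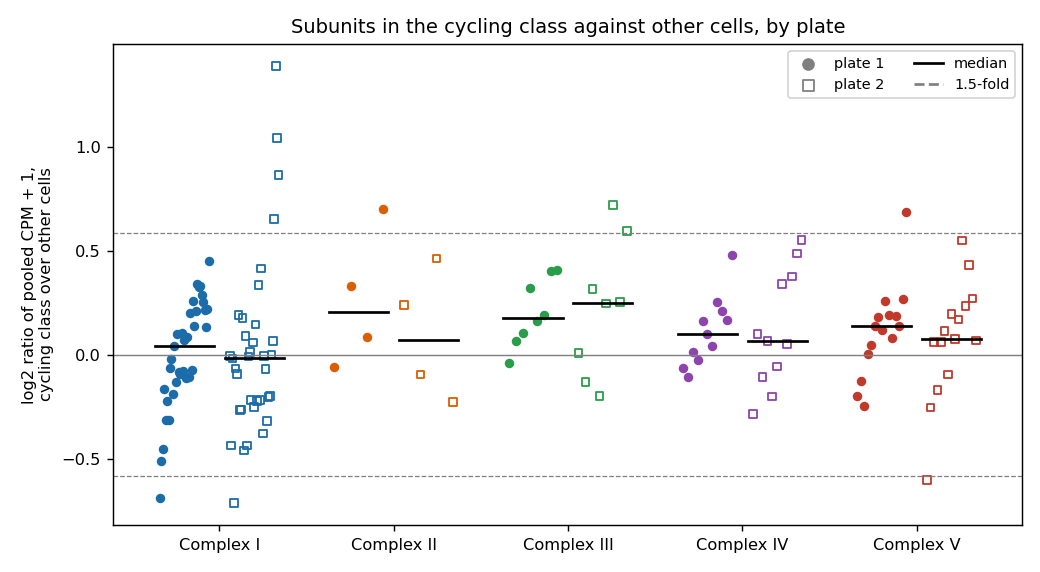
Log2 ratio of pooled CPM + 1 in the cycling class over the other cells (vertical axis) for each subunit, within plate 1 (circles) and within plate 2 (squares), by complex, with bars for medians and dashed lines at 1.5-fold. Most subunits lie between the dashed lines; the medians on plate 1 and plate 2 are 0.04 and -0.02 for complex I, 0.21 and 0.07 for II, 0.18 and 0.25 for III, 0.10 and 0.07 for IV and 0.14 and 0.08 for V, against 0.09 and 0.09 over all genes.

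Across the 143 cells, shares of the complexes moved together to a limited degree. Spearman's rho was 0.53 between complexes I and V, 0.52 between I and IV, 0.42 between IV and V and also between III and V, and 0.11 between II and IV. These are descriptions over cells of 1 pool that share plate, depth and RNA recovery. The share of all subunits had a rho of 0.45 with the number of genes detected, and that of complex V 0.53. Between single genes the correlations had medians near 0, and pairs within a complex ran between -0.22 (in complex I) and 0.36 (in complex V). The median over pairs of subunits was 0.16 within complex IV, 0.10 within III, 0.10 within V, 0.06 within I and 0.04 within II. For pairs of a subunit of the complex and a subunit of another, it was 0.09, 0.09, 0.08, 0.07 and 0.05 in the same order. Pairs were thus somewhat more alike within complex IV than across complexes, hardly more alike within III and V, and slightly less alike within I and II.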

How the data were processed

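The measurements are raw counts of reads, which the authors deposited as a single table of genes by cells; 92 rows are spike-ins. Per the submitters' processing notes, Trim Galore 0.4.3, STAR 2.5.3a, Picard, HTSeq and the build mm10 were used; the annotation, the settings and whether strand was counted are not given in the sources used here, so overlapping genes and near-identical copies are uncertain. Column sums equalled the labels' totals in 143 of 143 cells.

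From the counts, CPM was computed per cell with spike-ins left out and the ribosomal RNA precursor Rn45s kept in. Pooled CPM sums counts over cells first. Exon lengths, overlaps and shared windows of 50 bases came from GENCODE M21, with all 90 members matched by symbol or synonym. Promoters are RefSeq's on GRCm38.p6, matched for 74 members. Spread and likeness to other genes used running medians over neighbours in mean CPM, pooled CPM or level. Ratios used a pseudocount of 1 CPM, a minimum pooled CPM of 10 and a limit of 1.5-fold. No cell was removed. No doublet caller was run, as cells were sorted singly into wells.

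Values over cells are given for the highest and lowest 2 subunits per length in each complex, core subunits of complex I, complexes II and III, isoform sets, the 3 largest and 3 smallest excesses, and members past 1.5-fold; other members given such values were added after their values were seen. The values of 1 subunit that the rule names are not reported here. The members and lists were chosen with earlier results of these data known. Steps were tested on simulated data. Tools were Python 3.11.15, numpy 2.4.6, pandas 2.3.3, scipy 1.17.1, scikit-learn 1.9.0 and matplotlib 3.10.9.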

Additional observations from a re-analysis of the deposited data

How the results depend on the processing

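The count of 38 subunits read in at least 90% of cells stayed between 37 and 40 under the 5 alternatives tried: 5 counts, a CPM of 10, thinning to 259613 gene counts, and each plate alone. The members' share of gene counts, 1.49%, was 1.64% without Rn45s, 1.51% as a median over cells, 1.43% with spike-ins in the total, 1.54% on plate 1 and 1.397% on plate 2.

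Levels per length by complex are given in the order I, II, III, IV, V. They were 219, 411, 482, 490.3 and 331 by the longest transcript, 121.2, 320.3, 161, 191 and 205 CPM without length, and 299, 389, 535, 658 and 299 as means. On plate 1 they were 229.6, 363, 453, 367 and 254, and on plate 2 219, 381, 425, 315 and 219. Chosen after seeing the data, the principal transcript gave 254, 363, 515, 605 and 461, and its unshared windows 317, 376, 712, 721 and 661. The order of complexes II to V depends on the length used, while complex I was lowest under all 7, with complex V at nearly the same value on plate 2 and as means.

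The median excess of spread, -1.31, was -1.30 with a narrower running median, -1.32 without the filter, -1.01 scaled to spike-ins, -0.92 as variance of log2(CPM + 1), -1.30 on plate 1 and -1.39 on plate 2. Ordering genes by level, chosen after seeing the data, gave -0.27 by principal transcript and -0.38 by exon length.

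The 4 members past 1.5-fold between plates (background 27.8%) were 2 with a pseudocount of 10 (background 17.3%) and 0 at 2-fold (10.6% of all genes). The 3 in the cycling class (background 34.4%) were 31 scaled to spike-ins (50.2%), 5 on plate 1 alone (40.3%) and 10 on plate 2 alone (49.6%). The other 6 alternatives for these counts kept within 1.5 times. The cause of these moves was not tested.

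No paired analysis was possible because all cells belong to 1 group from 1 pool and share no replicate numbers with another group. With 1 pool, no spread between animals can be given; with no genome used here, copies outside the annotation were not seen; and reads without molecular identifiers limit what low counts show.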
